A study of Mus musculus with 6 samples.

Results

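Heparan sulfate is a long sugar chain attached to core proteins of the cell surface and the matrix. Exostosins build the chain in the Golgi, N-deacetylase/N-sulfotransferases and O-sulfotransferases then add sulfate groups, and extracellular 6-O-endosulfatases remove some of them after the chain has reached the cell surface. The sulfate pattern sets which growth factors and morphogens the chain binds, and fibroblasts use it to hold and present such factors. The 10 genes described here are Sulf1 and Sulf2 (the endosulfatases), Ext1, Ext2 and Extl3 (chain synthesis), Ndst1 and Ndst2 (N-sulfation), Hs2st1 (2-O-sulfation) and Hs6st1 and Hs6st2 (6-O-sulfation). They were picked by symbol out of 57180 rows of the count table, all 10 were present, and all 10 were among the 17635 genes that passed the filter on low counts.

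The cells were of the mouse line 10T1/2, a mesenchymal fibroblast line, and all 6 samples had been given TGF-β at 5 ng per mL to bring them towards the state of cancer-associated fibroblasts. In the PBS group 3 samples received PBS. In the other group 3 samples received photodynamic therapy (PDT), in which chlorin e6, a light-activated dye, was brought to the cells in extracellular vesicles directed at midkine (Ce6@D4-EV) and the cells were then lit. Vesicles, dye and light came together, cells without TGF-β were not analysed here, and a cell line stands for fibroblasts of a tumour only as a model.

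Library totals ran from 83195529 to 99527847 counts. Of 10 fibroblast markers, collagen and PDGF receptor genes and Vim were well expressed, Thy1, Dcn and Lum had mean levels between 0.30 and 1.31 CPM (counts per 1000000, scaled between libraries) and Fap was at 0. The summed level of the fibroblast markers was 20351 to 21211 CPM in PBS and 11967 to 12447 CPM in PDT: Col1a1, Col1a2, Col3a1, Pdgfra, Pdgfrb and Vim were called lower (log2 fold changes of -1.31 to -0.25) and Dcn higher (1.12). Sulf1 fell beside them, and their part in its change was not tested. Each list of epithelial, endothelial and leukocyte markers summed to at most 2.46 CPM in any library. Epcam, Kdr, Ptprc and Adgre1 were at 0 in all 6. Others had a low level that was not 0: Cdh1 reached 1.10 CPM, Tek 1.04 and Cd68 1.48, within the range of Thy1, Dcn and Lum. Tek was called lower in PDT (log2 fold change -1.44) and Cd68 higher (0.74). The leukocyte markers summed to between 1.34 and 1.44 CPM in PBS and between 1.98 and 2.46 CPM in PDT, and the part of this difference in the results was not tested.

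The gene group was assembled because Sulf1 was among the strongest falls between PDT and PBS, so the changes of the members in this contrast are a description and no p is given for them. Of the 10 members, 3 were lower in PDT (Sulf1, Ext1 and Hs6st2), 2 were higher (Ext2 and Hs6st1) and 5 did not pass an adjusted p of 0.05 in edgeR's quasi-likelihood test. Among all genes tested 36.1% passed in either direction, 18.7% higher and 17.5% lower in PDT, and nothing is read from the count of members beside that share. PBS and PDT libraries had separate CPM ranges for 6 of the 10 members, the 5 that passed and Sulf2, against 49.0% of all tested genes. The median log2 fold change was -0.02 over the members and 0.01 over all tested genes. The members did not move in a common direction: within the endosulfatases, the exostosins and the 6-O-sulfotransferases, 1 gene fell while its partner rose or did not pass the test.

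**Figure D1:**
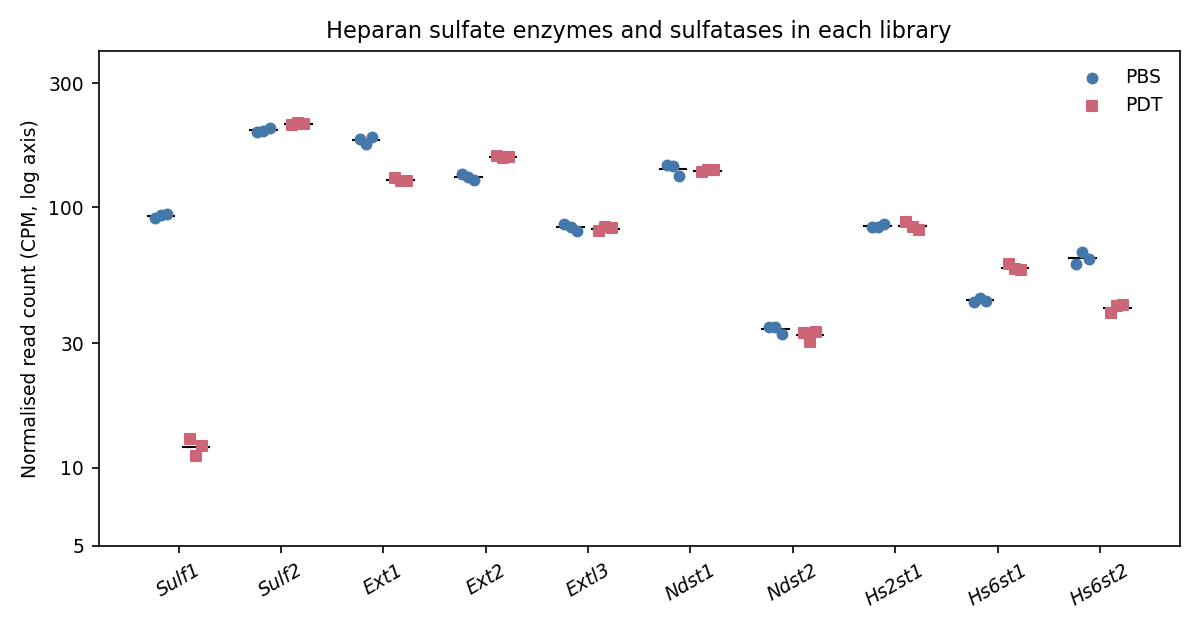
Normalised read counts (CPM, log axis) of the 10 genes in each library, with circles for PBS, squares for PDT and a line at each mean of 3 libraries. Sulf1 lies between 91.4 and 94.4 CPM in PBS and between 11.1 and 12.9 in PDT, while the groups of Extl3, Ndst1, Ndst2 and Hs2st1 overlap.

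The endosulfatases SULF1 and SULF2 are secreted enzymes that clip 6-O-sulfates from the highly sulfated stretches of finished chains. Sulf1 had 91.4, 93.5 and 94.4 CPM in the PBS libraries and 12.9, 11.1 and 12.1 CPM in the PDT libraries. All 3 PDT libraries lay far under all 3 PBS libraries. The level fell 7.75-fold, from 93.1 ± 1.54 to 12.0 ± 0.92 CPM (mean ± SD, n = 3), a log2 fold change of -2.95 ± 0.06 (± SE), which ranked 28 from the lowest of the 17635 tested genes. The level rested on 7645 to 7795 counts per PBS library and 1111 to 1216 per PDT library. In bulk libraries, less of the transcript per cell and fewer cells that hold it cannot be told apart.

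Sulf2 had 195.1, 196.4 and 201.1 CPM in PBS and 207.4, 210.7 and 209.8 CPM in PDT. Every PDT library was above every PBS library, but by little, and the log2 fold change of 0.08 ± 0.03 did not pass the threshold. Among the alternatives run, it passed only when libraries were scaled by their totals (0.13), a setting that also moved the median log2 fold change of all tested genes from 0.01 to 0.06.

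Because both enzymes act on the same sulfate groups, their levels were also set side by side per kilobase of transcript. In counts per kilobase, Sulf1 made up 27.7%, 28.0% and 27.7% of the summed Sulf1 and Sulf2 level in the PBS libraries and 4.84%, 4.12% and 4.50% in the PDT libraries. The share went from 27.8% ± 0.17 to 4.49% ± 0.36 (SD, n = 3), without overlap. Sulf2 stood at 2.59 ± 0.02 times the level of Sulf1 in PBS and at 21.4 ± 1.83 times in PDT. The summed level of both genes went from 59.8 ± 0.94 to 47.8 ± 0.22 CPM per kb, so most of the endosulfatase transcript measured in either group was Sulf2. With coding length in place of transcript length the Sulf1 share was 32.1% ± 0.19 in PBS and 5.46% ± 0.44 in PDT.

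**Figure D2:**
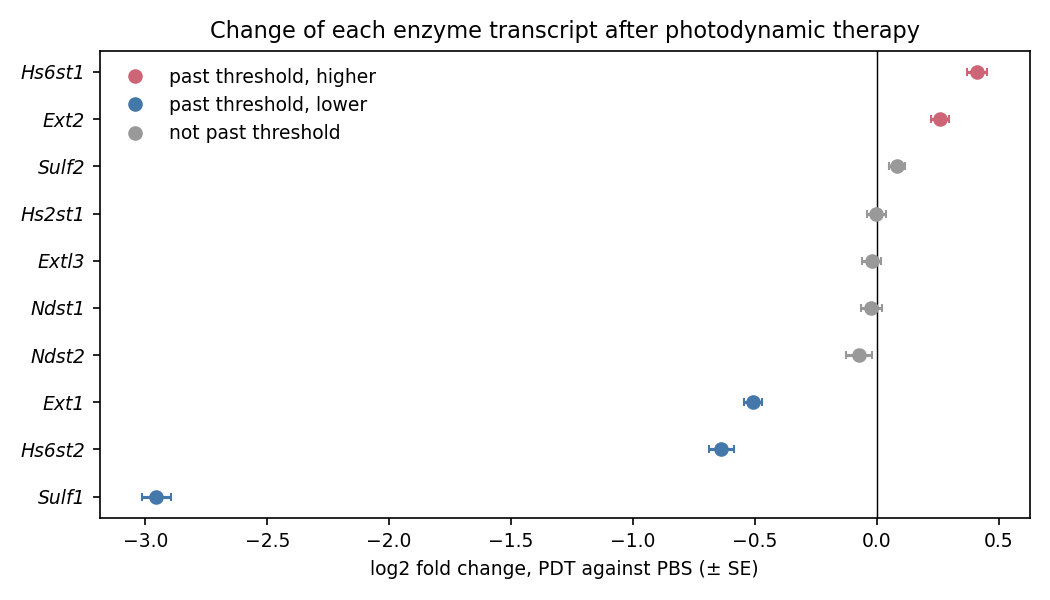
Log2 fold change of each gene, PDT against PBS, with bars of 1 SE from the edgeR fit on 3 and 3 libraries, coloured by whether the adjusted p was under 0.05 and in which direction. Sulf1 stands apart at -2.95, Hs6st2 and Ext1 lie at -0.64 and -0.51, Ext2 and Hs6st1 at 0.26 and 0.41, and the other 5 lie between -0.07 and 0.08.

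EXT1 and EXT2 form the complex that polymerises the chain by adding glucuronic acid and N-acetylglucosamine in turn. Ext1 had 182.5, 174.9 and 186.5 CPM in PBS and 129.9, 126.4 and 126.4 CPM in PDT. It was lower in each PDT library than in any PBS library, and it fell 1.42-fold, from 181.3 ± 5.89 to 127.6 ± 2.01 CPM (log2 fold change -0.51 ± 0.04). Ext2 had 134.5, 130.4 and 127.1 CPM in PBS and 157.4, 154.8 and 156.8 CPM in PDT. It went the other way, again with no overlap between the groups, and rose 1.20-fold from 130.7 ± 3.70 to 156.3 ± 1.33 CPM (0.26 ± 0.04).

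Per kilobase, Ext1 held 33.7%, 33.4% and 35.5% of the summed Ext1 and Ext2 level in PBS and 23.6%, 23.4% and 23.2% in PDT. The share went from 34.2% ± 1.11 to 23.4% ± 0.21 (SD, n = 3), with no overlap. With coding length it went from 57.2% ± 1.20 to 44.0% ± 0.28, so the drop was present either way, while which of both genes had the higher level in PBS depended on the length used. The change of the summed level depended on the length too. Per kb of transcript it went from 69.2 ± 1.30 to 71.1 ± 0.67 CPM, with ranges that overlapped. Per kb of coding sequence it went from 141.7 ± 2.7 to 129.6 ± 1.40 CPM, with ranges that did not. Extl3, an exostosin-like glycosyltransferase that adds the first N-acetylglucosamine of a heparan sulfate chain to the linker, had 81.2 to 86.6 CPM in PBS and 81.3 to 83.7 in PDT. These ranges overlapped, and the log2 fold change was -0.02 ± 0.04.

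**Figure D3:**
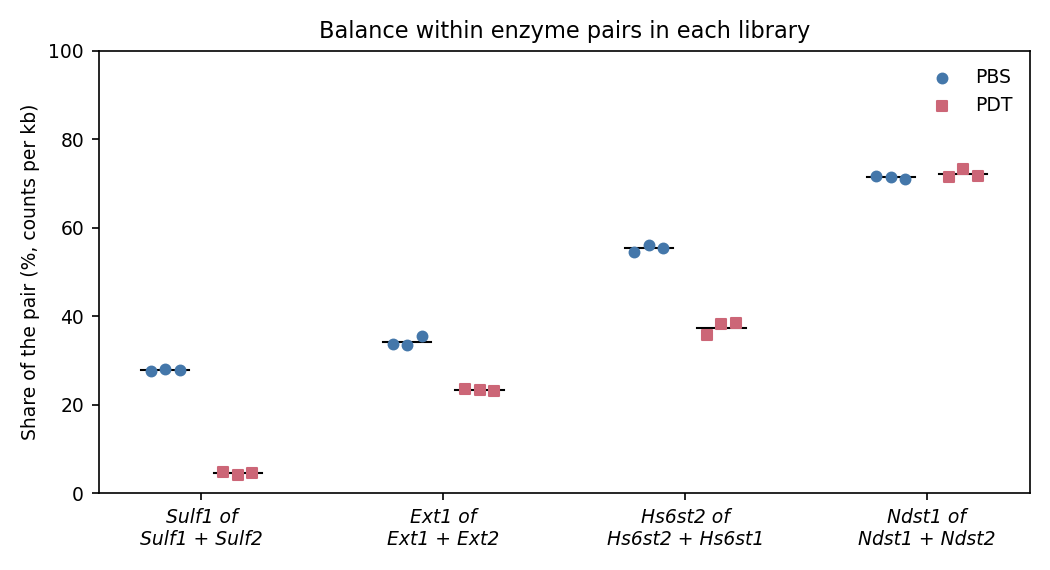
Share of the first-named gene in the summed counts per kilobase of each pair, in percent, for each PBS (circle) and PDT (square) library, with a line at each mean. The Sulf1 share goes from 27.8% to 4.49%, the Ext1 share from 34.2% to 23.4% and the Hs6st2 share from 55.3% to 37.4%, and the Ndst1 share is 71.4% in PBS and 72.2% in PDT.

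NDST1 and NDST2 replace the acetyl group of N-acetylglucosamine with sulfate, the step on which the later sulfations depend. Ndst1 ranged from 132.5 to 145.9 CPM in PBS and from 137.1 to 139.4 CPM in PDT, and its log2 fold change was -0.02 ± 0.04. Ndst2 ranged from 32.5 to 34.7 CPM in PBS and from 30.5 to 33.3 in PDT, with a log2 fold change of -0.07 ± 0.05. The groups overlapped for both genes. Ndst1 held 71.4% ± 0.32 of the summed level per kilobase in PBS and 72.2% ± 1.05 in PDT (SD, n = 3), a difference smaller than the spread among the PDT libraries.

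Hs2st1, whose enzyme adds sulfate to position O-2 of the uronic acid, had a log2 fold change of 0.00 ± 0.04, and of 0.13 with offsets for transcript length and GC content, where it again did not pass. It ranged from 83.9 to 86.3 CPM in PBS and from 82.1 to 87.9 CPM in PDT, so that the PBS range lay within the PDT range.

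HS6ST1 and HS6ST2 add the 6-O-sulfates that the SULF enzymes remove. Hs6st1 had 43.3, 44.8 and 43.9 CPM in PBS and 60.5, 57.8 and 57.3 CPM in PDT. It was higher in every PDT library and rose 1.33-fold, from 44.0 ± 0.74 to 58.5 ± 1.70 CPM (log2 fold change 0.41 ± 0.04). Hs6st2 had 60.6, 67.1 and 63.5 CPM in PBS and 39.3, 41.7 and 42.0 CPM in PDT. It was lower in every PDT library and fell 1.56-fold, from 63.7 ± 3.25 to 41.0 ± 1.47 CPM (-0.64 ± 0.05).

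The balance between both genes differed between the groups, without overlap of the libraries. Per kilobase of transcript, Hs6st2 made up 54.5%, 56.2% and 55.3% of their summed level in PBS and 35.7%, 38.1% and 38.5% in PDT. It was the more abundant transcript in each PBS library and the less abundant in each PDT library. With coding length its share was 49.3% ± 0.86 in PBS and 32.0% ± 1.41 in PDT, so that both genes were close to even in PBS. The summed level was 26.5 ± 0.95 CPM per kb of transcript in PBS and 25.2 ± 0.12 in PDT, with ranges that did not overlap, and 70.4 ± 2.37 and 69.8 ± 0.58 CPM per kb of coding sequence, with ranges that did.

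The promoters of Hs6st1 and Hs6st2 are shown because these partners moved in opposite directions. Each sequence is the 250 bases before the start that RefSeq gives on GRCm38.p6 (the counts were made on GRCm39), 5′ to 3′ on the strand of the gene. For Hs6st2, which has 2 starts in that table, it is the one farther upstream, and which start these cells used was not measured. Promoter entries were found for 6 of the 10 members; Sulf1, Ext1, Extl3 and Ndst1 had none. Capitals mark the TATA box (TATAAA), the GC box and the SMAD box, searched on both strands, and no marked motifs overlap. The GC box was searched as GGGCGG. The SMAD box was searched as CAGAC.
Hs6st1, chr1:36068150-36068399, plus strand: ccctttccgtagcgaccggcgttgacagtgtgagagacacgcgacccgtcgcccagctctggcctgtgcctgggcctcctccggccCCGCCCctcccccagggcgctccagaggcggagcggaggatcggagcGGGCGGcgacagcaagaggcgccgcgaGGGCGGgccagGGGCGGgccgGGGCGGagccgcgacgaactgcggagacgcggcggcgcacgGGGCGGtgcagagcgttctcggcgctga
Hs6st2, chrX:51681603-51681852, minus strand: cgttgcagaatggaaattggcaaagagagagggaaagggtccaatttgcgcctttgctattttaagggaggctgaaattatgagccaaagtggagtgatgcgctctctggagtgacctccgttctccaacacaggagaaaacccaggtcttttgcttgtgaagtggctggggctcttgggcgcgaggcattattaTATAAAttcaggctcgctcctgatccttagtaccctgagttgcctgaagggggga
The Hs6st1 window had a GC content of 76.4% and 6 GC boxes with 0 TATA boxes. The Hs6st2 window had a GC content of 50.0% and 1 TATA box with 0 GC boxes. That TATA box began 55 bases before the start used here. Neither held a SMAD box. Over 32851 promoter windows of this length, 12.4% held the TATA box, 32.7% the GC box and 42.2% the SMAD box, and the median GC content was 52.4%. A match is a description of letters and does not show a working site.

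Ranked by level per kilobase in PBS, the members ran Ext2 (45.5 ± 1.29 CPM per kb), Sulf2 (43.1 ± 0.69), Ext1, Ndst1, Sulf1 (16.6 ± 0.28), Hs6st2, Extl3, Hs2st1, Hs6st1 and Ndst2 (8.69 ± 0.32). Among neighbours in that order, the ranges over libraries overlapped for Hs6st2 with Extl3 and for Extl3 with Hs2st1 only. In PDT, Ext2 (54.4 ± 0.46) and Sulf2 (45.7 ± 0.37) still led, Hs6st1 stood in the fifth place and Hs6st2 in the eighth, and Sulf1 came last at 2.15 ± 0.17 CPM per kb. There the ranges of neighbours overlapped for Extl3 and Hs2st1 only. This order rests on the longest annotated protein-coding transcript of each gene, the isoforms made in these cells were not measured, and places can change with the length used, as they did for Ext1 and Ext2.

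Properties of the transcripts moved with some of these results. The 3 members that fell had transcripts of 44.1% to 46.7% GC, and the 2 that rose had 55.6% and 57.7%. Hs2st1, at 45.5% GC, did not pass the test. Nor did Ndst2 at 55.8%, or Sulf2, Extl3 and Ndst1 at 53.3% to 54.6%. With offsets for transcript length and GC content the 5 calls held, at -2.87 for Sulf1, -0.32 for Ext1, 0.20 for Ext2, 0.37 for Hs6st1 and -0.54 for Hs6st2, so the value of Ext1 shrank by over 1.5 times. In each fit that left out 1 library, all 5 of these members passed in the same direction. The offset and left-out fits reuse libraries of the contrast in which Sulf1 was picked. They describe dependence on the processing and add no support for the changes.

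Not every tested gene was ranked for likeness to Sulf1, and a ranked gene needed a mean log2 CPM of 2 or higher. Of the genes ranked, the 5 whose profile over the 6 libraries was most like that of Sulf1 were Tnfrsf11b, Ccn2, Anxa8, Aspn and Gprin3. Likeness was the mean absolute difference in log2 CPM after each gene was centred on its own mean, and it ran from 0.09 for Tnfrsf11b to 0.16 for Gprin3. Their log2 fold changes lay between -3.25 and -2.80. Because both groups enter the measure, it picks genes with a fall of like size in the same contrast.

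Other genes of heparan sulfate metabolism were read from lists, with adjusted p from edgeR's quasi-likelihood test and Benjamini-Hochberg adjustment over all tested genes. The lists were chosen with earlier results of these data known, and most genes are named because of these p-values. The p-values are therefore a description and no independent support. Their counts stand beside the 18.7% of all tested genes that were higher and the 17.5% that were lower, and their medians beside 0.01. Median log2 fold changes were 0.14 for linker and chain start, -0.13 for core proteins and 0.00 for sulfate donor and sugar supply. For further modification enzymes the median was 0.41 over 3 tested genes, the value of Ndst4, which had 8 to 20 counts per library. Of 9 enzymes of the protein linker and of chain start, 2 rose and 1 fell. B4galt7, a galactosyltransferase of the linker, was at 0.26 ± 0.07 (adjusted p = 0.0127), and Pxylp1, the phosphatase that removes phosphate from the linker xylose, at -0.20 ± 0.05 (0.0174). These calls depended on single libraries: B4galt7 gave adjusted p = 0.0533 without PDT replicate 1 and 0.0656 without PDT replicate 2, and Pxylp1 gave 0.0736 without PBS replicate 1 and 0.0668 without PDT replicate 1. B4galt7 also missed the threshold with length and GC offsets (0.0559), and Pxylp1 did so with library size only (0.0579) and without the filter on low counts (0.0698).

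Among 11 further modification enzymes only 3 were tested, and of these Glce, the epimerase that turns glucuronic into iduronic acid, fell by 0.24 ± 0.04 (adjusted p = 0.00114; with length and GC offsets -0.11 and 0.0986). Of the others, Hs6st3, the remaining 6-O-sulfotransferase gene, and 6 of the 7 3-O-sulfotransferase genes had 0 counts in all 6 libraries, which allows up to 3 counts or 0.0298 to 0.0368 CPM per library (counting error only). The exception was Hs3st1, with 18 counts in all. Only 29921 of the 57180 rows had a count in any library and the annotation and counter are not known, so these genes are reported as listed at 0, not as absent from the cells.

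Of 10 tested genes of lysosomal chain breakdown, heparanase and the sulfatase-modifying factors, 5 rose and 1 fell (median log2 fold change 0.21, against 0.01 over all tested genes). Besides Hgsnat and Naglu, Gusb rose (0.27 ± 0.04), as did the factors Sumf1 (0.20 ± 0.05) and Sumf2 (0.22 ± 0.06). The number of higher genes in this list was 4 without PBS replicate 1 and 4 without PDT replicate 2. Hgsnat and Naglu passed in each of these fits. Ids fell (-0.21 ± 0.04, adjusted p = 0.00193), a call that was lost with length and GC offsets. Hgsnat, which acetylates the terminal glucosamine in the lysosome, rose from 49.4 ± 0.25 to 61.7 ± 0.32 CPM (0.32 ± 0.04, adjusted p = 0.000146). Naglu, which then removes that sugar, rose from 29.4 ± 0.67 to 37.3 ± 1.25 CPM (0.34 ± 0.05, adjusted p = 0.000526). For both genes every PDT library was above every PBS library.

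Of 10 tested core protein genes 2 rose and 5 fell. The glypican gene Gpc1 rose 1.59-fold from 144.2 ± 2.55 to 229.3 ± 5.13 CPM (0.67 ± 0.04, adjusted p = 1.1e-06). Perlecan (Hspg2) fell by 0.37 ± 0.03 (3.52e-05), Col18a1 by 0.58 ± 0.07 (0.000161) and syndecan 2 (Sdc2) by 0.28 ± 0.03 (0.000211; with offsets -0.10 and 0.222). In the supply of sulfate donor and nucleotide sugars 1 of 12 genes rose and 4 fell. Papss2, a synthase of the sulfate donor PAPS, fell 2.06-fold from 9.90 ± 1.06 to 4.82 ± 0.30 CPM (-1.04 ± 0.10, adjusted p = 6.31e-05), while its homologue Papss1, at 101.8 ± 1.15 and 103.4 ± 3.3 CPM, did not pass the test (0.02 ± 0.04, adjusted p = 0.683). Bpnt2, a Golgi phosphatase that clears the spent donor, was at -0.27 ± 0.04 (0.00046), and Slc35b4, a nucleotide sugar transporter, at 0.22 ± 0.04 (0.00289).

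For comparison, chondroitin and dermatan sulfate synthesis, which shares the linker, had 4 of 14 tested genes higher and 4 lower (median -0.02). The epimerase genes Dse and Dsel fell by 0.28 ± 0.04 and 0.40 ± 0.05 (adjusted p = 0.000359 and 0.000154; Dsel -0.13 and 0.132 with offsets), and Chst3 was at -0.50 ± 0.16 (0.0323). Chst3 did not pass without PBS replicate 1, 2 or 3, or PDT replicate 1 or 3, with adjusted p of 0.0542 to 0.107, nor without the filter on low counts (0.0809).

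**Figure D4:**
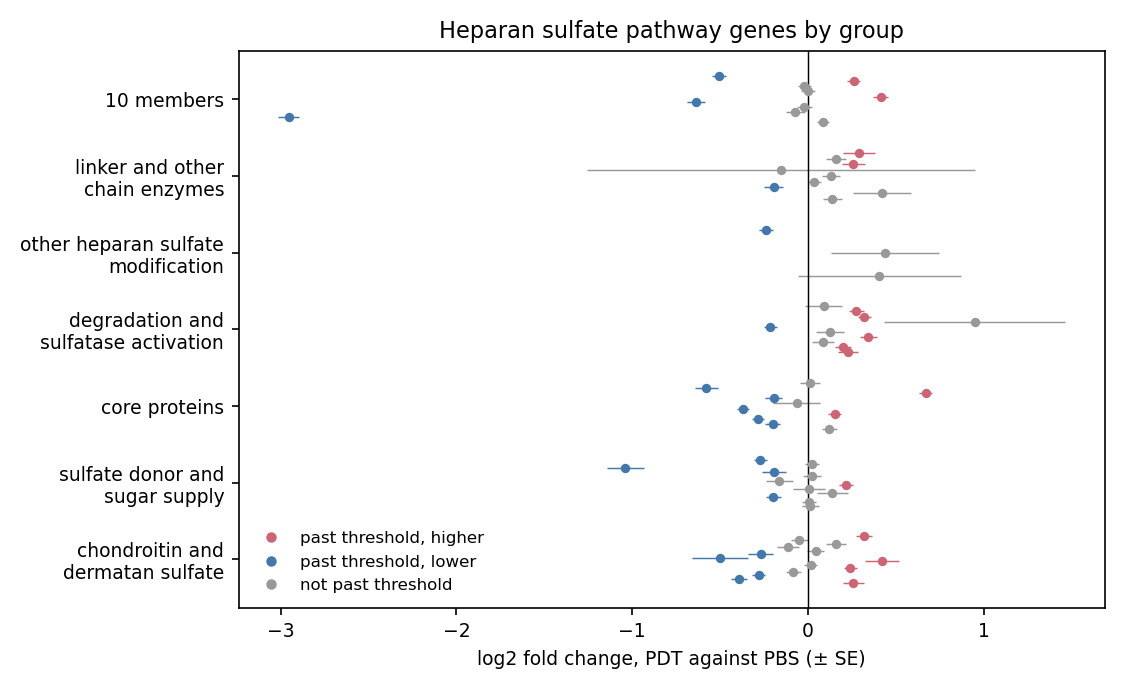
Log2 fold change (PDT against PBS, with bars of 1 SE) of each tested gene of the heparan sulfate pathway and of chondroitin and dermatan sulfate synthesis, coloured by whether the adjusted p was under 0.05. Sulf1 at -2.95 lies farthest from 0, followed by Papss2 at -1.04, and every group except the further modification enzymes holds genes past the threshold in both directions.

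The design text calls the 3 samples of each group biological replicates without naming cultures or days, so the p-values given above reflect only the variation among these libraries, which may be partly technical. Transcript levels were measured, not enzyme activity or sulfation.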

How the data were processed

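RNA sequencing was done on 6 samples, 3 PBS and 3 PDT, grouped by the treatment in the labels and numbered by their titles. Ribosomal RNA was removed and a directional kit was used, per the labels' protocols. The table that the authors deposited holds raw read counts per gene symbol. The submitters' processing notes name STAR 2.7.11b, cutadapt 4.6 and the build GRCm39. Not given in the sources used here are the counter, the annotation, strand use, the treatment of reads matching several genes and the time from treatment to extraction, so overlapping and antisense genes are uncertain.

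Genes were filtered with filterByExpr and scaled with TMM, and both groups were compared by edgeR 4.0.16 (R 4.3.3; quasi-likelihood test) on group alone, with Benjamini-Hochberg adjustment over 17635 genes and a threshold of 0.05. SE is the log2 fold change over the square root of F. Alternatives used DESeq2 1.42.0, limma 3.58.1 (voom), other scaling and filters, a replicate block, fits without each sample and offsets for length and GC content (mgcv 1.9.3; 92.7% of tested genes had values). Lengths are of the longest protein-coding GENCODE M21 transcript. The design text names no pairing of samples by replicate number, and none was used in the main fit. No library was a copy of another.

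Members and lists were chosen with earlier results of these data known. Named pathway genes were those past the threshold with a log2 fold change of at least 0.5 in size, plus up to 2 per list with the lowest adjusted p. Papss1, Gusb, Sumf1, Sumf2 and Ids were added after their values were seen, and shares of pairs other than Sulf1 with Sulf2 were also added then. A gene of the pathway lists is not reported here and is left out of the counts of its list.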

Additional observations from a re-analysis of the deposited data

How the results depend on the processing

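For the members, the 3 lower and 2 higher calls held in the same direction under RLE scaling, library size only, DESeq2, limma-voom, both filter settings, the replicate block, the offsets and each left-out library, and Sulf2 was called with library size only (0.13). All these settings reuse the libraries in which Sulf1 was picked, so calls that held are no independent support. Genes changed numbered 6372. They numbered 6877 without PDT replicate 3, and 4755 to 5277 when any other single library was left out. The share of calls that were higher in PDT was 51.7%, and 63.0% with library size only. Of the linker genes, 2 were higher and 1 lower: 6 and 0 with library size only, 1 higher with the replicate block, 0 lower without the low-count filter, and 0 to 3 higher and 0 to 1 lower when 1 library was left out. With offsets, 0 further modification enzymes, 0 breakdown genes and 2 supply genes were lower, and 1 core protein gene and 3 supply genes were higher. Bpnt2, called lower among the supply genes, had no length or GC value and was not in that fit. Core protein genes higher ran from 1 to 3 with 1 library left out. Of the chondroitin genes, 2 were lower without the filter, and 2 to 3 with 1 library left out. The Sulf1 share differed by -23.3 percentage points between PDT and PBS, -26.7 with coding length and -26.6 with no length scaling (-23.5 to -23.1 with 1 library left out). Same-numbered samples did not deviate together (r of -0.01, 0.01 and 0.00), which with 3 libraries per group cannot exclude a shared culture or day. The replicate block moved no other count by over 1.5 times. Apart from the length values, whose scale sets them, the cause of these changes was not tested. At these depths members had at least 1111 counts per library. Pathway genes reached lower, as with Chst3 at 208 to 313 counts per library (SE 0.16), and the limit set by depth was not tested.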
